A study of Mus musculus with 12 samples.

Results

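A set of 10 genes of the translation elongation machinery and of closely related messages were followed through ribosome-bound and total RNA of adult mouse dorsal root ganglion (DRG) sensory neurons. They were taken by symbol: the subunits of elongation factor 1 (Eef1a1, Eef1a2, Eef1b2, Eef1d, Eef1g and the associated Eef1e1), elongation factor 2 (Eef2), and Tpt1, Pabpc1 and Rack1. All 10 were found among the 14675 gene rows of the count table, and all 10 passed the filter on low counts that kept 8085 genes. They were chosen by name and function, not by a threshold on any value, though with earlier results of these data known.

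The mice carried the RPL22HA+/+;Advillin-Cre+ genotype, in which sensory neurons that express Cre from the Advillin gene make an HA-tagged ribosomal protein. An anti-HA immunoprecipitation (IP) of the lysate recovers RNA held by tagged ribosomes, and the input is RNA of the same kind of lysate before it. Neurons of every group had received AAV-shGpr151, a viral hairpin directed at Gpr151, and in 1 treatment AAV-e5'UTR was given as well; the labels do not say what that second virus carries. The 4 groups, with 3 columns each, were input with shGpr151, input with shGpr151 and e5'UTR, IP with shGpr151, and IP with shGpr151 and e5'UTR. A group with a non-targeting hairpin or with no virus was not analysed here, so every comparison is made on top of AAV-shGpr151. According to the design text the mice had a sciatic nerve injury as preconditioning and their neurons were then cultured; the extraction protocol instead mentions ganglia that were freshly collected, and which of these applies is not settled. Input RNA of whole ganglia or mixed cultures holds other cells besides neurons, and in such bulk RNA fewer cells of a type and less RNA per cell cannot be told apart.

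Elongation is the cycle in which eEF1A, charged with GTP, delivers aminoacyl-tRNA to the ribosome and eEF2 moves the ribosome on by one codon. Eef1a1 and Eef1a2 encode alternative forms of eEF1A: Eef1a1 is used by most cell types, while Eef1a2 takes its place in mature neurons and in skeletal and heart muscle. Many mRNAs of this machinery, and nearly all those of ribosomal proteins, belong to the TOP class, which begin with a C followed by an uninterrupted run of pyrimidines (C or T in the DNA) and whose translation is tuned as a group by mTORC1 and Larp1.

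The start of the gene is what defines a TOP message, so the longest pyrimidine run near the annotated start is shown for the 7 members that have an entry in the RefSeq promoter table (mouse build GRCm38.p6). Each line gives 30 bases, 5′ to 3′ on the strand of the gene, and the capitals mark the longest run of C or T found between 25 bases before and 50 bases after the annotated start. The 30 bases are placed around that run, so they do not all hold the start itself.
Rack1 (chr11:48800347-48800376, plus strand): gaggccgCTCTTTCTTTTTCTCCacagggt
Eef1a2 (chr2:181157011-181157040, minus strand): tgcctgTTTTTCTCTCCTggtctgcgttct
Eef1a1 (chr9:78481710-78481739, minus strand): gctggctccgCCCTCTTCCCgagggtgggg
Eef2 (chr10:81176634-81176663, plus strand): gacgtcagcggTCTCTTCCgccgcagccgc
Eef1e1 (chr13:38658999-38659028, minus strand): tgcaggccccgCCTCCCTaggagctgggcc
Tpt1 (chr14:75845276-75845305, plus strand): cggtgacgtagccgagcgtgCCCTCTatat
Eef1b2 (chr1:63176851-63176880, plus strand): tgcgtccgagcgCTTTCgttcaactccggc

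The runs were 16 bases long in Rack1, 12 in Eef1a2, 10 in Eef1a1, 8 in Eef2, 7 in Eef1e1, 6 in Tpt1 and 5 in Eef1b2. Counted from 1 at the annotated start, with negative numbers before it, the run lay at -6 to 10 in Rack1 and -5 to 5 in Eef1a1, the 2 runs that hold the start. It ended before the start in Eef1a2 (-19 to -8) and began after it in Eef1e1 (12), Eef2 (15), Eef1b2 (33) and Tpt1 (41). The printed bases of Eef2, Eef1b2 and Tpt1 begin at 4, 21 and 21 and lie wholly after the start. A run of at least 8 pyrimidines on the gene's own strand was thus present in 57.1% of the 7 windows, against 72.7% of 66 windows of cytosolic ribosomal protein genes, 58.3% of 12 windows of other TOP genes and 27.2% of all 32851 windows. An annotated start need not be the base at which these neurons begin the mRNA, and the run is a description of the letters in the window, not a TOP sequence found there.

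Columns of a group differed by little more than the counting of reads. The total count per column was 984118 to 985277 for input with shGpr151, 975403 to 977366 for input with e5'UTR, 1381220 to 1382261 for IP with shGpr151 and 1514948 to 1517685 for IP with e5'UTR. Of the genes with enough counts to compare the 3 columns of a group, 7.2% to 7.7% differed between them at an unadjusted chi-square p under 0.05, which is close to counting noise. The 3 columns of a group were therefore summed to 1 pool and counted as 1 sample, so that IP against input rests on 2 pools a fraction, and each e5'UTR comparison on 1 pool against 1 pool with no replicate check. The 2 pools of a fraction differ in treatment, so the spread behind the IP against input p-values includes that difference and is no replicate spread. Intervals quoted below are 95% intervals and cover counting error only. They are exact, except those relative to the ribosomal protein mRNAs, which are normal approximations on the log2 scale. Fitted e5'UTR p-values use the spread of the columns, compare the reads of these pools, and say nothing of variation between mice. Summed TMM-scaled levels in CPM (counts scaled to a common library size) of 13 sensory neuron markers were 3926 and 3894 in the input pools and 7037 and 7286 in the IP pools. Of the 13, 9 were called higher in IP and 2 lower, Scn9a (log2 difference -1.38) and Snap25 (-1.21). Among all tested genes 33.5% were called higher and 36.2% lower. Those of 8 Schwann cell markers were 1153 and 1116 in input and 476 and 453 in IP, and those of 5 erythroid markers 2364 and 2322 in input and 2.26 and 3.04 in IP. Satellite glia, fibroblast and macrophage sums were also lower in IP by TMM. As a share of all counts the macrophage sum was nearly level, at 0.0108% in each input pool and 0.0096% and 0.0106% in the IP pools without and with e5'UTR. A lower macrophage sum in IP thus depends on the scaling. Yet Glul of the glia list (log2 difference 1.94) and Csf1r of the macrophage list (1.31, 4 and 9 input counts) were called higher. Endothelial and mural markers were at 67.9 and 77.2 in input and 61.2 and 75.8 in IP, so not all other cell types were depleted. Marker sums that differ between the fractions do so alongside every IP against input value below, and their part in it was not tested.

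The elongation factor mRNAs did not move as a block between total and ribosome-bound RNA. Eef1a2, Eef2, Eef1a1 and Eef1g were higher in the IP, Eef1b2 and Tpt1 were lower, and Rack1, Eef1d, Pabpc1 and Eef1e1 did not pass the test (edgeR's quasi-likelihood test on the 4 pools, Benjamini-Hochberg adjusted p under 0.05 over all 8085 genes). So 6 of 10 members were called, where 69.7% of all tested genes were called, 33.5% of them higher and 36.2% lower. The number called is thus close to the background. The median log2 difference of the 10 was 0.01, beside 0.06 for all tested genes. Values ran from -3.09 for Tpt1, above 6.0% of tested genes, to 2.79 for Eef1a2, above 98.8%. Among the elongation factor genes the lowest was Eef1b2 at -0.45, above 37.1%. The members thus lay across much of the range of all tested genes, and a spread particular to them is not shown. These log2 values carry a choice of scale. Scaling by library total in place of TMM adds about the same amount to every gene, moves the median of all tested genes to 0.99, and gives 9 members higher and 1 lower, where 85.7% of tested genes were called (62.2% higher, 23.4% lower). Differences between members do not depend on that choice.

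**Figure D1:**
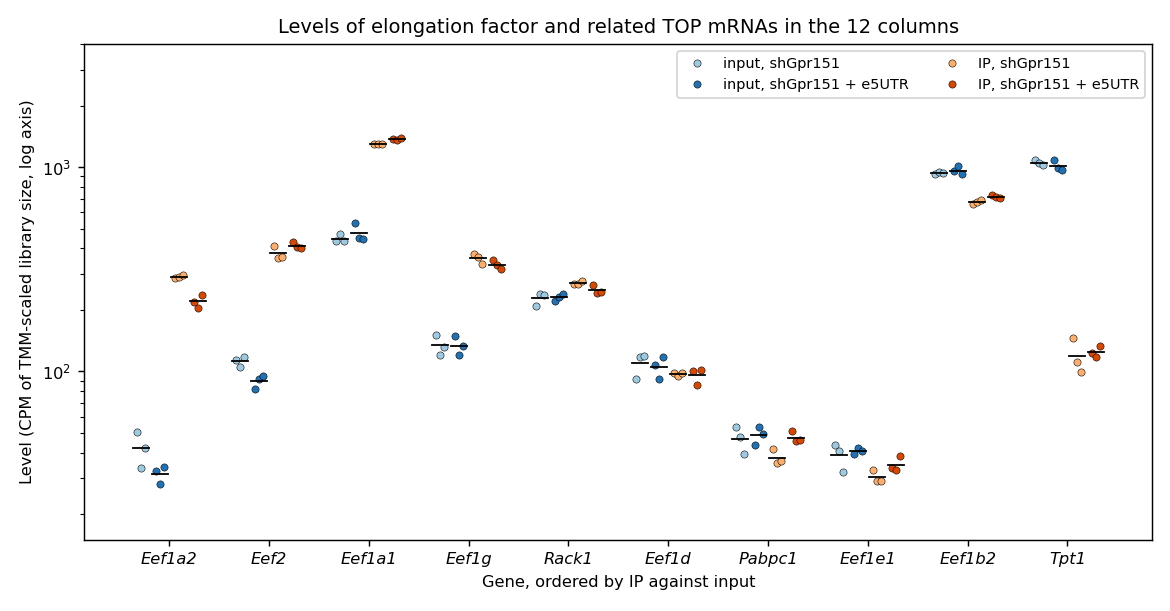
Level of each of the 10 genes in the 4 groups, in TMM-scaled CPM on a log axis; points are the 3 columns of a group and black lines the pools. Eef1a1, Eef1a2, Eef1g and Eef2 lie above input in both IP groups, and Tpt1 lies below it in both.

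Eef1a2, the neuronal form of eEF1A, stood highest of the 10 in IP against input. It had 36, 24 and 30 counts in the input columns with shGpr151 and 23, 20 and 24 in those with e5'UTR, against 547, 555 and 571 in the IP columns with shGpr151 and 458, 427 and 491 in those with e5'UTR. The pooled counts without and with e5'UTR were 90 and 67 in input and 1673 and 1376 in IP. The log2 difference between IP and input was 2.79 ± 0.18 (SE; a 6.92-fold difference; edgeR adjusted p = 9.1e-09), above 98.8% of tested genes. It was 2.79 without e5'UTR and 2.80 with it.

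Eef1a1, the eEF1A form of most cell types, was also higher in the IP. Its counts were 308, 334 and 308 in input and 2484, 2492 and 2481 in IP with shGpr151, and 378, 320 and 316 in input and 2851, 2831 and 2880 in IP with e5'UTR. The IP columns of a treatment were nearly identical to each other. The difference was 1.53 ± 0.11 (SE; 2.89-fold; edgeR adjusted p = 2.1e-08), above 87.5% of tested genes.

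The balance between these forms can be read as the share of Eef1a2 in the summed Eef1a1 and Eef1a2 counts, which needs no scaling between libraries. Counts were not divided by transcript length, so only changes of this share are interpreted, not which form is the more abundant. The share was 8.65% of 1040 counts in input with shGpr151 (exact interval 7.02% to 10.5%) and 18.3% of 9130 counts in the matching IP (17.5% to 19.1%). With e5'UTR it was 6.20% of 1081 counts in input (4.84% to 7.80%) and 13.8% of 9938 counts in IP (13.2% to 14.5%). The Eef1a2 to Eef1a1 ratio was thus 2.37-fold higher in IP than in input without e5'UTR (1.89 to 2.99) and 2.43-fold higher with it (1.88 to 3.18). Sensory neuron markers moved in the same direction as the share between input and IP, by the summed levels above, and their part in it was not tested. Of 11 skeletal muscle markers, the other tissue known for Eef1a2, 3 were in the table (Acta1, Mylpf and Eno3), with 15, 7, 39 and 47 summed counts in the pools of input with shGpr151, input with e5'UTR, IP with shGpr151 and IP with e5'UTR; none reached the filter on low counts.

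**Figure D2:**
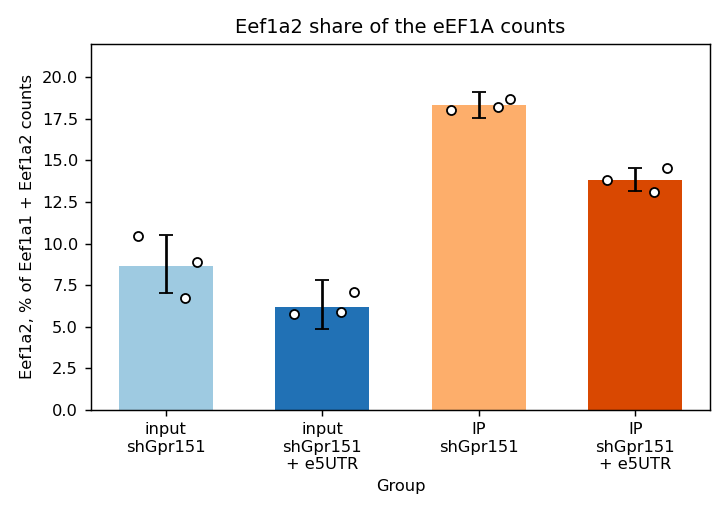
Share of Eef1a2 in the summed Eef1a1 and Eef1a2 counts, in percent, for the 4 groups; bars are the pooled share, error bars its 95% exact binomial interval and points the 3 columns. The share is 8.65% and 6.20% in the input pools and 18.3% and 13.8% in the IP pools.

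Eef2, the translocase of the elongation cycle, was higher in the IP. Its counts were 81, 75 and 84 in input and 789, 690 and 696 in IP with shGpr151, and 58, 65 and 67 in input and 898, 843 and 834 in IP with e5'UTR. With e5'UTR the pooled input count was lower (190 against 240) and the pooled IP count, in a deeper library, higher (2575 against 2175). The difference was 1.97 ± 0.14 (SE; 3.91-fold; edgeR adjusted p = 2e-08), above 93.6% of tested genes. Set against Eef1a1, which no scaling affects, the Eef1a1 to Eef2 ratio in IP was 0.866 of that in input without e5'UTR (0.743 to 1.01), an interval that includes no difference, and 0.623 with e5'UTR (0.527 to 0.733).

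Eef1b2, Eef1d and Eef1g encode the subunits of the eEF1B complex: Eef1b2 and Eef1d the nucleotide exchange factors that recharge eEF1A with GTP, Eef1g a structural subunit. Their mRNAs did not keep a common ratio. Eef1g had 107, 86 and 94 counts in input and 720, 697 and 646 in IP with shGpr151, and 105, 85 and 94 in input and 728, 688 and 659 in IP with e5'UTR. The pooled counts were 287 in input and 2063 in IP without e5'UTR, and 284 and 2075 with it. The difference was 1.36 ± 0.12 (SE; 2.57-fold; edgeR adjusted p = 2.6e-07), above 84.5% of tested genes.

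Eef1b2 had 658, 674 and 664 counts in input and 1270, 1299 and 1322 in IP with shGpr151, and 676, 713 and 652 in input and 1529, 1481 and 1470 in IP with e5'UTR. The raw counts were higher in IP, in libraries that were also deeper, and the direction of the scaled value follows from the scaling. By TMM the difference was -0.45 ± 0.11 (SE; edgeR adjusted p = 0.002). By library total it was 0.49 (adjusted p = 0.00057), and the TMM call was lost without either input pool (-0.46 with adjusted p = 0.06 without input with shGpr151, and -0.43 with adjusted p = 0.088 without input with e5'UTR) and when genes with a mean under 50 counts were left out (-0.06, adjusted p = 0.59). Eef1d had 65, 84 and 85 counts in input and 188, 182 and 188 in IP with shGpr151, and 76, 65 and 83 in input and 210, 178 and 211 in IP with e5'UTR. By TMM Eef1d differed by -0.16 ± 0.13 (SE; edgeR adjusted p = 0.28), and by library total by 0.77. Set against Eef1b2, which no scaling affects, Eef1g was 3.69-fold higher in IP than in input without e5'UTR (3.22 to 4.23) and 3.33-fold higher with it (2.91 to 3.82). The Eef1d to Eef1b2 ratio was 1.22-fold higher in IP in both treatments (1.04 to 1.44 without e5'UTR and 1.03 to 1.44 with it). The Eef1a1 to Eef1b2 ratio was 4.03-fold higher without e5'UTR and 3.85-fold higher with it.

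Eef1e1 encodes a small protein of the multi-tRNA synthetase complex that resembles the eEF1 subunits. It was among the least counted members, with 31, 29 and 23 counts in input and 63, 56 and 56 in IP with shGpr151, and 28, 30 and 29 in input and 70, 69 and 80 in IP with e5'UTR. Its difference by TMM was -0.29 ± 0.17 (SE; edgeR adjusted p = 0.15), and 0.65 by library total. Pabpc1, the main cytoplasmic poly(A)-binding protein, had 38, 34 and 28 counts in input and 80, 68 and 70 in IP with shGpr151, and 31, 38 and 35 in input and 106, 95 and 96 in IP with e5'UTR. Its difference by TMM was -0.16 ± 0.17 (SE; edgeR adjusted p = 0.39), and 0.77 by library total.

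Rack1, a scaffold protein of the small ribosomal subunit, had 148, 170 and 168 counts in input and 514, 512 and 531 in IP with shGpr151, and 156, 164 and 170 in input and 552, 505 and 508 in IP with e5'UTR. The raw counts of the treatments overlapped in both fractions, though the IP libraries with e5'UTR were deeper. Scaled by TMM, the pooled IP ratio with over without e5'UTR was 0.924 (0.861 to 0.992). Between IP and input Rack1 differed by 0.18 ± 0.12 by TMM (SE; edgeR adjusted p = 0.18) and 1.12 by library total. Rack1 passed the threshold when the 12 columns were taken as samples (0.22, adjusted p = 0.00029, in a fit that called 76.6% of tested genes), without the IP pool with e5'UTR (0.33, adjusted p = 0.0058), with no filter (0.31, adjusted p = 0.042), and when genes with a mean under 50 counts were left out (0.57, adjusted p = 0.0012).

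Tpt1, which encodes the translationally controlled tumor protein, stood at the other end. Its counts were 771, 744 and 726 in input and 278, 213 and 191 in IP with shGpr151, and 768, 702 and 681 in input and 256, 244 and 277 in IP with e5'UTR. Although the IP libraries were deeper, the pooled counts without and with e5'UTR were 2241 and 2151 in input and 682 and 777 in IP. The difference was -3.09 ± 0.12 (SE; edgeR adjusted p = 5.4e-11), lower than for all but 6.0% of tested genes, and it was -2.15 by library total. In IP with shGpr151 the columns of Tpt1 differed beyond counting (chi-square p = 0.000122, adjusted p = 0.00486), and the highest of them was still far below every input column. The Eef1a1 to Tpt1 ratio was 25.8-fold higher in IP than in input without e5'UTR (23.1 to 28.8) and 23.4-fold higher with it (21.0 to 26.0), and the Eef1a2 to Tpt1 ratio was 61.0-fold (48.4 to 77.6) and 56.8-fold (43.8 to 74.7) higher.

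**Figure D3:**
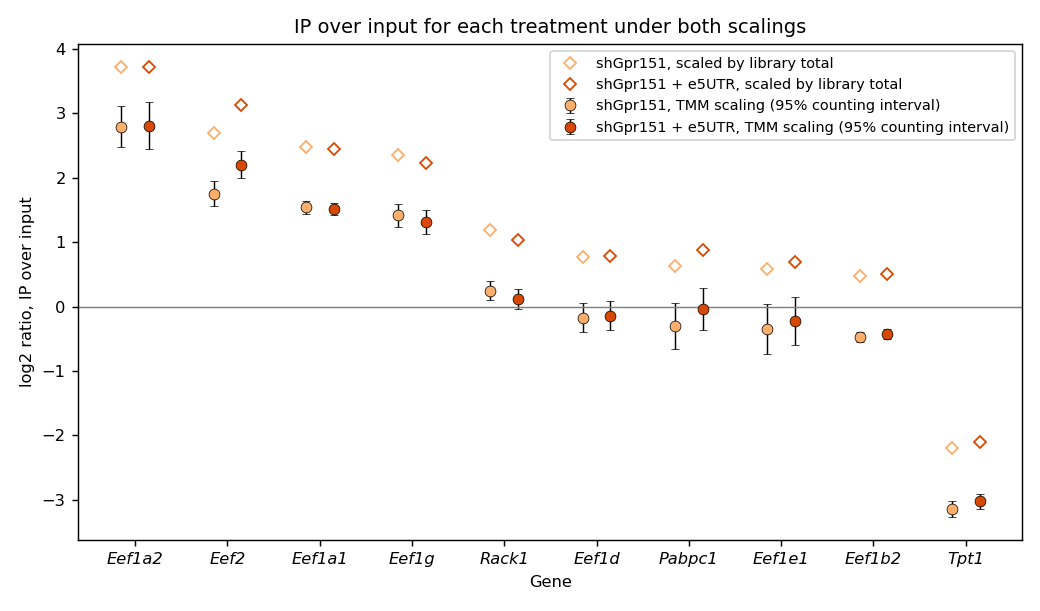
Log2 ratio of IP over input for each gene and treatment; filled circles are TMM-scaled pools with their 95% counting interval, open diamonds the same ratios scaled by library total. The diamonds lie above the circles by nearly the same amount for every gene, and Eef1a2 is highest and Tpt1 lowest under both scalings.

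Cytosolic ribosomal protein mRNAs give a reference within the TOP class, and a member's count over their sum is again free of scaling. Relative to the summed counts of 78 ribosomal protein genes, the mean IP over input log2 ratio of the 2 treatments was 3.20 for Eef1a2 (2.96 to 3.43), 2.38 for Eef2 (2.24 to 2.52), 1.93 for Eef1a1 (1.87 to 2.00) and 1.77 for Eef1g (1.64 to 1.89). Rack1 followed at 0.59 (0.48 to 0.69), and Eef1d (0.25, 0.09 to 0.40), Pabpc1 (0.23, -0.01 to 0.46), Eef1e1 (0.11, -0.15 to 0.37) and Eef1b2 (-0.04, -0.10 to 0.01) lay close to the ribosomal protein mRNAs. Tpt1 was at -2.68 (-2.77 to -2.60). Neighbours in this order whose intervals overlap are Eef1a1 and Eef1g, Eef1d and Pabpc1, Pabpc1 and Eef1e1, and Eef1e1 and Eef1b2. Gene by gene, Eef1a2, Eef2 and Eef1a1 had a higher IP against input value than all 78 ribosomal protein mRNAs, Eef1g was above 77 of them, Rack1 above 72, Eef1b2 above 38, and Tpt1 was below all 78. The 78 themselves had 6 genes higher and 61 lower by TMM (median -0.44), where 33.5% of all tested genes were higher and 36.2% lower. By library total 63 of the 78 were higher and 4 lower (median 0.49), where 62.2% and 23.4% of all tested genes were.

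The printed runs can be set beside these values, as a description of few genes. The 4 members with a run of at least 8 pyrimidines (Rack1, Eef1a2, Eef1a1 and Eef2) had IP against input values from 0.18 to 2.79, and the 3 with a shorter run (Eef1e1, Tpt1 and Eef1b2) from -3.09 to -0.29. The wider sets do not show such a gap. Over all tested genes with an entry the medians were 0.16 for 1687 genes with such a run and 0.22 for 4012 without, and over ribosomal protein genes they were -0.41 for 46 and -0.56 for 11.

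Other genes of the pathway, from lists chosen by function, also lay in both directions. The background for every list count here and in the next paragraph is the share of all tested genes. It was 33.5% higher and 36.2% lower by TMM, and 62.2% higher and 23.4% lower by library total. Of 14 other TOP mRNAs, 7 were higher and 1 lower in IP (median 0.34), among them the initiation factor subunits Eif3f (2.14) and Eif4b (1.60) and the intermediate filament gene Vim (1.40), with Eif2s3x, a subunit of the initiator tRNA carrier eIF2, at -1.91. Of 12 tested elongation, termination and recycling factors (17 in the list), 6 were higher and 3 lower (median 0.52): Abcf3 (1.69), Gtpbp2 (1.59), which helps to rescue stalled ribosomes, and Abcf2 (1.53) were the highest called, and Abce1 (-2.30), which splits ribosomes for recycling, the lowest. Of 11 genes of the multi-tRNA synthetase complex with Vars, 7 were higher and 2 lower (median 0.67), from Mars, the methionyl-tRNA synthetase, at 1.94 to Kars, the lysyl-tRNA synthetase, at -2.06. By library total these 3 lists had 13 higher and 1 lower, 9 and 1, and 8 and 1.

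Of 8 tested enzymes that modify eEF1A or eEF2 (15 in the table), 1 was higher and 4 were lower by TMM (median -0.48). By library total 3 were higher and 1 was lower (median 0.45). With so few genes, no direction of the list is read from these counts. The called genes by TMM included Ppp2ca, the catalytic subunit of protein phosphatase 2A, at 1.14, and, on the lower side, Eef1akmt3 (-2.61), a lysine methyltransferase of eEF1A, Dnajc24 (-0.98) and Dph3 (-0.86), both of the diphthamide pathway that modifies eEF2. Eef2k, the kinase that inhibits eEF2, was not tested, with 9, 9, 44 and 32 counts in the pools of input with shGpr151, input with e5'UTR, IP with shGpr151 and IP with e5'UTR. Of 10 tested poly(A)-binding proteins and partners, 2 were higher and 4 lower by TMM (median -0.07) and 5 higher and 2 lower by library total (median 0.86), with Eif4g1 (0.77), the scaffold that Pabpc1 binds in initiation, and Paip2b (-1.55), an inhibitor of poly(A)-binding protein, among them. Of 12 tested regulators of mTORC1 and of TOP mRNAs, 8 were higher and 3 lower (median 1.05; 9 and 2 by library total), with Mlst8 (1.68), Mtor (1.65) and Tsc2 (1.31) at the top, and Tia1 (-2.57), Deptor (-2.26), an inhibitor of mTOR, and Eif4ebp1 (-0.78), a repressor of cap-dependent translation, at the bottom. The mitochondrial elongation factors, which serve a separate ribosome and are no TOP class, had 3 of 5 higher and none lower (median 1.15; 5 higher by library total), with Guf1 (1.52), Gfm1 (1.34) and Tufm (1.15). The single-gene values are by TMM, and each lies about 0.93 higher by library total, which turns the sign for Dph3 and Eif4ebp1. Several of the highest genes had few input counts and passed the filter on low counts through the IP columns. The input pools without and with e5'UTR held 5 and 6 counts of Mlst8, 2 and 9 of Mtor and 8 and 14 of Tsc2. They held 13 and 5 of Guf1, 9 and 16 of Gfm1 and 5 and 5 of Gtpbp2. Admission through the IP columns favours higher values, which tilts such list counts and medians upward by an amount that was not tested.

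**Figure D4:**
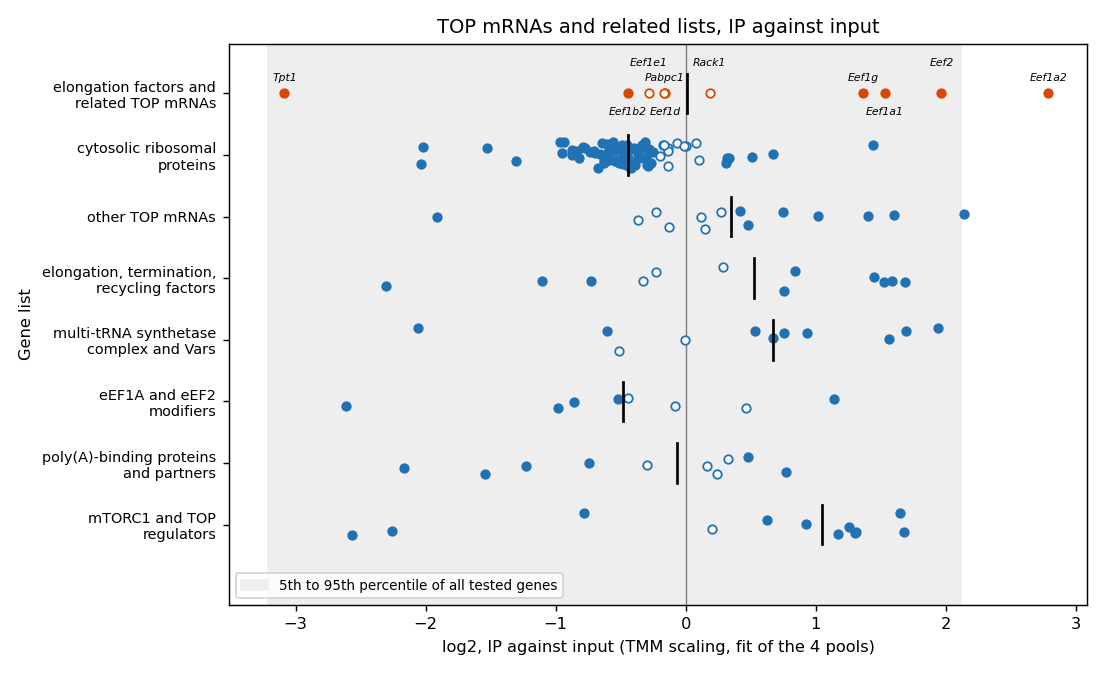
Log2 IP against input (TMM, 4 pools) of every tested gene of the 10 members (top row, named) and of 7 related lists; filled points passed the test, open points did not, vertical bars are list medians and the shaded band holds the 5th to 95th percentile of all tested genes. Eef1a2 lies beyond the upper end of the band, and the ribosomal protein genes cluster around -0.44.

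Adding AAV-e5'UTR left the members' total RNA without a call. In input, 0 of 10 members passed (edgeR quasi-likelihood test on 12 columns), where 0.198% of tested genes did (16 of 8085), and 1 member had an unadjusted p under 0.05; DESeq2 also called 0. That member was Eef2, with 240 pooled counts without e5'UTR and 190 with it, a log2 difference of -0.33 ± 0.14 (SE; unadjusted p = 0.022, edgeR adjusted p = 0.95). Eef1a2 differed by -0.42 ± 0.21 (SE; edgeR adjusted p = 0.97), with a pooled ratio of 0.748 whose counting interval ran from 0.537 to 1.04. Eef1a1 differed by 0.10, and the other 7 lay between these values. Eef1a2 had 90 and 67 counts in these pools.

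In ribosome-bound RNA Eef1a2 fell with e5'UTR, and it was the only 1 of 10 members that passed the test, where 11.0% of tested genes did (4.71% higher, 6.25% lower). The number of members called is thus close to the background. The value of Eef1a2 lay above 13.8% of tested genes, so lower values were not rare. The counts of Eef1a2 were 547, 555 and 571 without e5'UTR and 458, 427 and 491 with it, in libraries that were deeper with e5'UTR. The columns of a treatment count as 1 pool, so the gap between them is no replicate check. The log2 difference was -0.40 ± 0.06 (SE; edgeR adjusted p = 2.9e-05), a pooled ratio of 0.756 (0.704 to 0.813), and it passed the threshold in all alternatives run, including the omission of any 1 column (-0.54 to -0.40). The Eef1a2 to Eef1a1 ratio was 0.716 of that without e5'UTR in IP (0.662 to 0.775) and 0.698 in input (0.494 to 0.981). Summed sensory neuron markers were 7037 CPM without e5'UTR and 7286 CPM with it in the same IP pools. That rise was in 1 marker, Uchl1, which was called higher (0.14, edgeR adjusted p = 7.87e-06): without Uchl1, a sum formed after seeing the values, the other 12 markers were at 3882 and 3811 CPM. The median of the 13 was -0.03 by TMM, with 1 higher and 0 lower, and -0.10 with DESeq2's size factors, with 1 higher and 3 lower. The part of neuron content in the value of Eef1a2 was not tested.

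The remaining 9 members differed by -0.11 to 0.33 in IP and were not called. Pabpc1 had the widest difference of them (0.33 ± 0.13 SE, edgeR adjusted p = 0.11), with 80, 68 and 70 counts without e5'UTR and 106, 95 and 96 with it. Eef2 differed by 0.13 ± 0.05 (SE, edgeR adjusted p = 0.12) and Eef1a1 by 0.08 (adjusted p = 0.08). Eef1g and Rack1 each differed by -0.11 (adjusted p = 0.24 for both), and both passed the threshold with DESeq2's size factors in edgeR (-0.18 for each, adjusted p = 0.029 and 0.028) and on leaving out some IP columns: Eef1g without column 3 of shGpr151 (-0.25) or column 1 of e5'UTR (-0.24), and Rack1 without column 1 (-0.21) or 2 (-0.21) of shGpr151 or column 1 of e5'UTR (-0.25). Pabpc1 (0.32, adjusted p = 0.043) and Eef1a1 (0.08, adjusted p = 0.039) passed when genes with a mean under 50 counts were left out, and Eef1a1 also without column 1 of input with e5'UTR (adjusted p = 0.045).

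**Figure D5:**
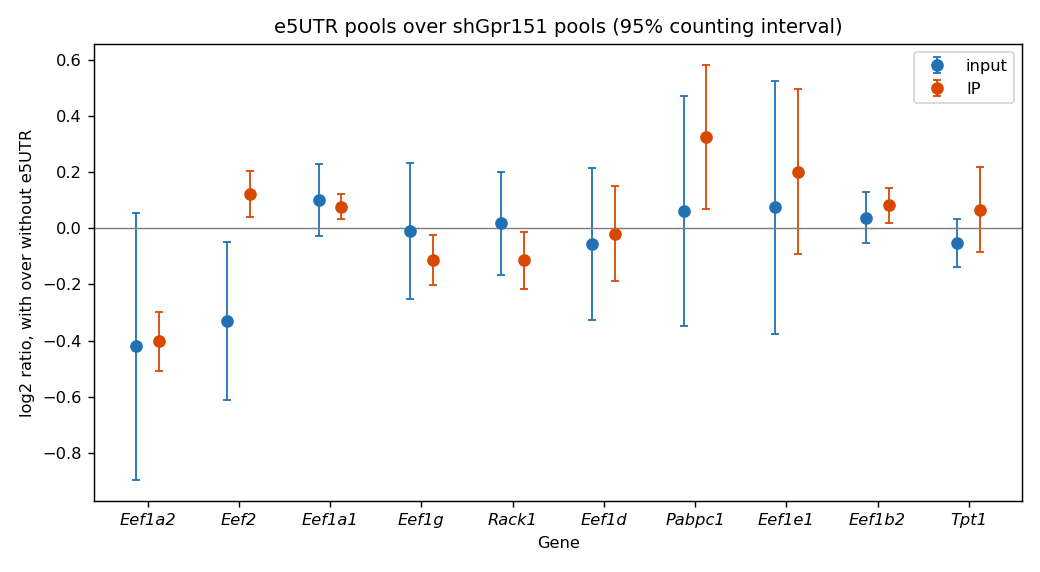
Log2 ratio of the pools with e5'UTR over those without it, for input (blue) and IP (orange), TMM-scaled, with 95% counting intervals. For Eef1a2 the IP interval lies wholly below 0 and the input point lies at about the same value with a far wider interval, and for Eef2 the input and IP points lie on opposite sides of 0.

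Whether IP against input itself differed with e5'UTR was tested as an interaction over the 12 columns. None of the members was called (0 of 10 by edgeR's quasi-likelihood test, 1 with an unadjusted p under 0.05, and 0 by DESeq2), where 5.11% of tested genes were. Eef2 came nearest: its IP over input ratio was 3.36 without e5'UTR (2.94 to 3.86) and 4.60 with it (3.97 to 5.36), an interaction of 0.46 ± 0.14 on the log2 scale (SE; unadjusted p = 0.0039, edgeR adjusted p = 0.069). It passed when genes with a mean under 50 counts were left out (adjusted p = 0.032). For Eef1a2 the interaction was 0.02 ± 0.21 (SE; edgeR adjusted p = 0.98), so that the lower IP count with e5'UTR was not shown to differ from the value in input.

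With e5'UTR in IP, 31 of the 78 ribosomal protein genes were called higher and 6 lower by TMM (median 0.08, from -0.21 for Rpsa to 0.90 for Rps2). Of all tested genes 4.71% were higher and 6.25% lower. With DESeq2's size factors 16 of the 78 were higher and 16 lower (median 0.00), where 184 and 713 of 8085 tested genes were. Without any 1 of the 6 IP columns, 11 to 12 of the 78 were higher and 16 to 18 lower, so their direction as a group rests on the scaling and on these columns. Of the other list genes, Eif3e (0.67), Eif4a2 (0.25) and Eif4ebp1 (0.49) rose in IP, and Abce1 (-0.33), Eef1akmt3 (-0.37) and Paip2b (-0.45) fell, each with an edgeR adjusted p under 0.05 by TMM. The 3 higher calls were lost with DESeq2's size factors (adjusted p = 0.0549 for Eif3e, 0.149 for Eif4a2 and 0.107 for Eif4ebp1), and that of Eif4ebp1 also by library total (0.0605) and without any 1 of the 12 columns. Eif4a2 was lost without any 1 of the 6 IP columns, and Eif3e without any of them but column 2 of shGpr151. The 3 lower calls passed in all alternatives run. In input no gene of these lists was called. These calls, like that of Eef1a2, compare 1 pool with 1 pool.

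To place the 3 main factors among other messages, the genes closest to each in pattern over the 4 pools were found among 2008 genes with a mean of at least 50 CPM, by the Euclidean distance of centred log2 CPM. Nearest to Eef1a1 were Hsp90ab1 (distance 0.0342), a cytosolic chaperone, Rab7 (0.0571), a small GTPase of late endosomes, and Fabp3 (0.0804), a fatty acid-binding protein. Nearest to Eef2 were Rrp1 (0.0492), Cct2 (0.0824), a chaperonin subunit, and Camk1 (0.0873), a calcium-dependent kinase. Eef1a2 had less close neighbours: a gene listed only as ENSMUSG00000126543 (0.155), Ywhag (0.303), a 14-3-3 protein, and Ndn (0.339). With 4 pools, these distances describe the libraries and carry no test.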

How the data were processed

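RNA from HA immunoprecipitates and inputs was read as Nanopore cDNA-PCR libraries, per the labels' protocols. Per the submitters' processing notes, minimap2 and Salmon were used with build GRCm39 (mm39). How reads that map to several places were treated is not stated there. The authors deposited 1 table of estimated counts (expected counts) for 14675 Ensembl gene IDs in 12 columns, all mapped to samples; the values are whole numbers, so rounding changed nothing. Symbols came from a gene name table (89.9% of IDs matched; IDs without a symbol held 11.0% of counts). With the treatment of reads that map to several places not stated, Eef1a1, Eef1b2, Rack1 and other members with processed pseudogenes are uncertain in level. Eef1d overlaps Tigd5, and Eef1b2, Eef2, Tpt1 and Rack1 contain small nucleolar RNA genes. Of 6 Tpt1 pseudogene IDs, 0 were in the table, and pseudogenes of the other members were not looked up.

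The members and gene lists were chosen with earlier results of these data known. The columns of a group were summed to 1 pool. IP against input was fitted on 4 pools (fraction only, 2 residual degrees of freedom), and the e5'UTR and interaction contrasts on 12 columns (8 residual degrees of freedom), in edgeR 4.0.16 (R 4.3.3) with its quasi-likelihood test, TMM scaling, filterByExpr (minimum count 10, minimum total 15) and Benjamini-Hochberg adjustment over 8085 genes at 0.05. The SE printed with an edgeR log2 value is its absolute size divided by the square root of the test's F statistic. The biological coefficient of variation was 10.31% between pools of a fraction, which differ in treatment, and 2.58% between columns. Nothing in the labels says that the columns came from separate animals, so p-values over them measure a spread that may be technical. Fits were tested on simulated data. Shares have exact Clopper-Pearson intervals at 95%, and ratios of pooled counts exact binomial ones. Values relative to the ribosomal protein mRNAs have normal-approximation intervals on the log2 scale. Alternatives were library total, DESeq2 (1.42.0) and its size factors, other filters, each column or pool left out, the 12 columns as samples, a treatment term, and the replicate number as a block. All 10 members were named; of each other list, up to 3 called genes with the highest and 3 with the lowest IP against input value, of which the text gives some, and any list gene called with e5'UTR, the ribosomal protein genes by count and range. Sequences are RefSeq's, build GRCm38.p6, and were read from a promoter table; 7 of 10 members matched.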

Additional observations from a re-analysis of the deposited data

Results flagged for a closer look

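The difference between IP and input changed with e5'UTR for Paip2b, an inhibitor of poly(A)-binding protein and thus a partner of Pabpc1 (interaction of -0.778 on the log2 scale, edgeR adjusted p = 0.0034, tested over 12 columns). It also changed for 28 of the 78 cytosolic ribosomal protein mRNAs, 24 of them upward and 4 downward by TMM, where 5.11% of all tested genes were called. With DESeq2's size factors the split of the 78 was 10 upward and 7 downward, where 56 and 364 of 8085 tested genes were. Without any 1 of the 6 IP columns it was 5 to 7 upward and 8 to 10 downward. Both results compare 1 pool a group, and none of the 10 members passed the same test.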

How the results depend on the processing

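Of 786 values of single members under other settings, 756 kept their direction or stayed uncalled, 19 newly passed the threshold, 3 no longer passed and 8 reversed; 63 of the 756 changed sign while uncalled. Every reversal came from library total in IP against input: Eef1b2 0.49, Eef1d 0.77, Eef1e1 0.65 and Pabpc1 0.77 with 4 pools, and 0.49, 0.77, 0.64 and 0.76 with 12 columns, an alternative chosen after seeing the data. Library total gave 5031 genes higher and 1895 lower (5205 higher with 12 columns), against 2706 and 2928 by TMM. Leaving out genes with a mean under 50 counts, which tests fewer genes, gave 1045 higher and 962 lower. For e5'UTR in input (1 higher, 15 lower by TMM), no filter gave 2 higher, that stricter filter 0 higher and 8 lower, and DESeq2 0 higher. For e5'UTR in IP (381 higher, 505 lower), 184 were higher with DESeq2's size factors and 93 with DESeq2, and the lower calls were then 713 and 542. For the interaction (127 higher, 286 lower), 56 and 38 were higher. DESeq2's size factors move the median of all genes in e5'UTR in IP from 0.00 to -0.07; the cause of the other changes was not tested.

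Leaving out 1 column or pool gave 2178 to 2786 genes higher and 2654 to 3160 lower in IP against input, 0 to 3 higher and 9 to 17 lower for e5'UTR in input, 93 to 384 higher and 499 to 644 lower for e5'UTR in IP, and 36 to 109 higher and 244 to 379 lower for the interaction. The low counts of higher genes for e5'UTR in IP came from leaving out any of the 6 IP columns (93 to 109). The replicate number as a block gave 347 higher and 469 lower for e5'UTR in IP, 1 and 15 for e5'UTR in input, 122 and 274 for the interaction, and 3094 and 3054 for IP against input; columns with the same number did not deviate together (correlations from -0.0864 to 0.0457). Under the block Eef2 passed in the interaction (0.46, adjusted p = 0.049) and Rack1 in IP against input with 12 columns (0.22, adjusted p = 0.0006). Counts per kilobase were not run, because transcript lengths were not used here. Depth limits Eef1a2, Pabpc1 and Eef1e1 in input most, at 67 to 104 counts a pool.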
